A study of Sus scrofa with 10 samples.

Results

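Interferon-induced antiviral genes were followed in aortic valve leaflets of swine. Expression was read on an Affymetrix porcine array, where several short probes to the same transcript form a probe set. The genes were OAS1, IFI44L, MX1, MX2, ISG15, RSAD2, IRF1 and CXCL10. Probe sets whose array annotation gives exactly 1 symbol were taken, and the brightest probe set over the 10 arrays stood for its gene. By this rule 7 of the 8 genes were measured, out of 6765 genes in all, with 10 probe sets in the fitted table. CXCL10, a chemokine that draws T cells, had no probe set with that single symbol and was not analysed here. The genes were chosen by their log2 expression values on these same arrays, in both group comparisons and in the spread within the juvenile RFH group. Their levels and differences are therefore given as descriptions without a test of their own. Where any of them is given as past a significance threshold, nothing is read from that call.

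The 3 groups were female swine on standard chow, with 4 arrays of adult Rapacz familial hypercholesterolemic (RFH) swine aged 2 years, 3 arrays of juvenile RFH swine aged 3 months and 3 arrays of juvenile wild-type (WT) swine aged 3 months. RFH is a breed with inherited high blood cholesterol. The WT animals are labelled as Rapacz Wisconsin Miniature Swine with the genotype RFH -/-, so the RFH state and the breed label cannot be told apart. The WT arrays were registered under sample numbers apart from those of the RFH arrays, and with no scan date or batch in the labels a batch cannot be told apart from any difference between RFH and WT. Adult and juvenile RFH swine differ in age, and a change with age cannot be told apart from the course of the disease. Whether the arrays of a group are from different animals is not in the labels, so errors and p-values describe the spread between arrays as labelled.

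Interferons are secreted when cells sense foreign or misplaced nucleic acid. Their receptors signal through JAK kinases to transcription factors that switch on a broad set of antiviral genes. Among the genes followed here, OAS1 makes the oligoadenylates that activate the ribonuclease RNase L, MX1 and MX2 are dynamin-like GTPases that block viruses, ISG15 is a ubiquitin-like protein attached to other proteins, and RSAD2 (viperin) is a radical-SAM enzyme. IFI44L belongs to a family of interferon-induced proteins. IRF1 is a transcription factor that responds to interferon gamma and to inflammatory cytokines.

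The arrays differed in what else they held. Juvenile RFH replicate 2 carried transcripts of cardiac muscle: the mean of 15 measured markers was 8.45 on the log2 scale, against 5.39 and 5.69 in replicates 1 and 3, 5.50 to 5.78 in adult RFH and 5.25 to 5.29 in juvenile WT arrays. In that array 13 of the 15 markers were the highest of the juvenile RFH group, among them ACTC1, the cardiac actin, at 10.89. Of 7 valve interstitial and matrix markers, VIM, an intermediate filament gene of mesenchymal cells, measured 14.20 to 14.46, and the collagen gene COL3A1 at most 7.39. The mean of the 7 was 11.49 to 11.95 in adult RFH, 12.12 to 12.18 in juvenile RFH and 12.21 to 12.27 in juvenile WT. At an adjusted p under 0.05, adult leaflets had 2 of these 7 below juvenile RFH, beside 7.85% of all genes. The mean of 8 macrophage markers was 10.86 to 11.58 in adult RFH, 10.40 to 10.41 in juvenile RFH and 9.88 to 10.04 in juvenile WT arrays. At the same adjusted p, adult leaflets had 5 of these 8 macrophage markers above juvenile RFH, beside 11.4% of all genes. Results that rest on juvenile RFH replicate 2 are given with and without it.

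The antiviral genes showed 3 patterns. OAS1 was high in every RFH array of either age and low in every WT array. MX1, MX2, ISG15, RSAD2 and IFI44L were split within the juvenile RFH group, with replicates 1 and 3 high and replicate 2 lower by 0.61 to 1.17 on the log2 scale. IFI44L was lower in adult RFH leaflets than in every juvenile array, and IRF1 was highest in 3 of the 4 adult arrays.

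**Figure D1:**
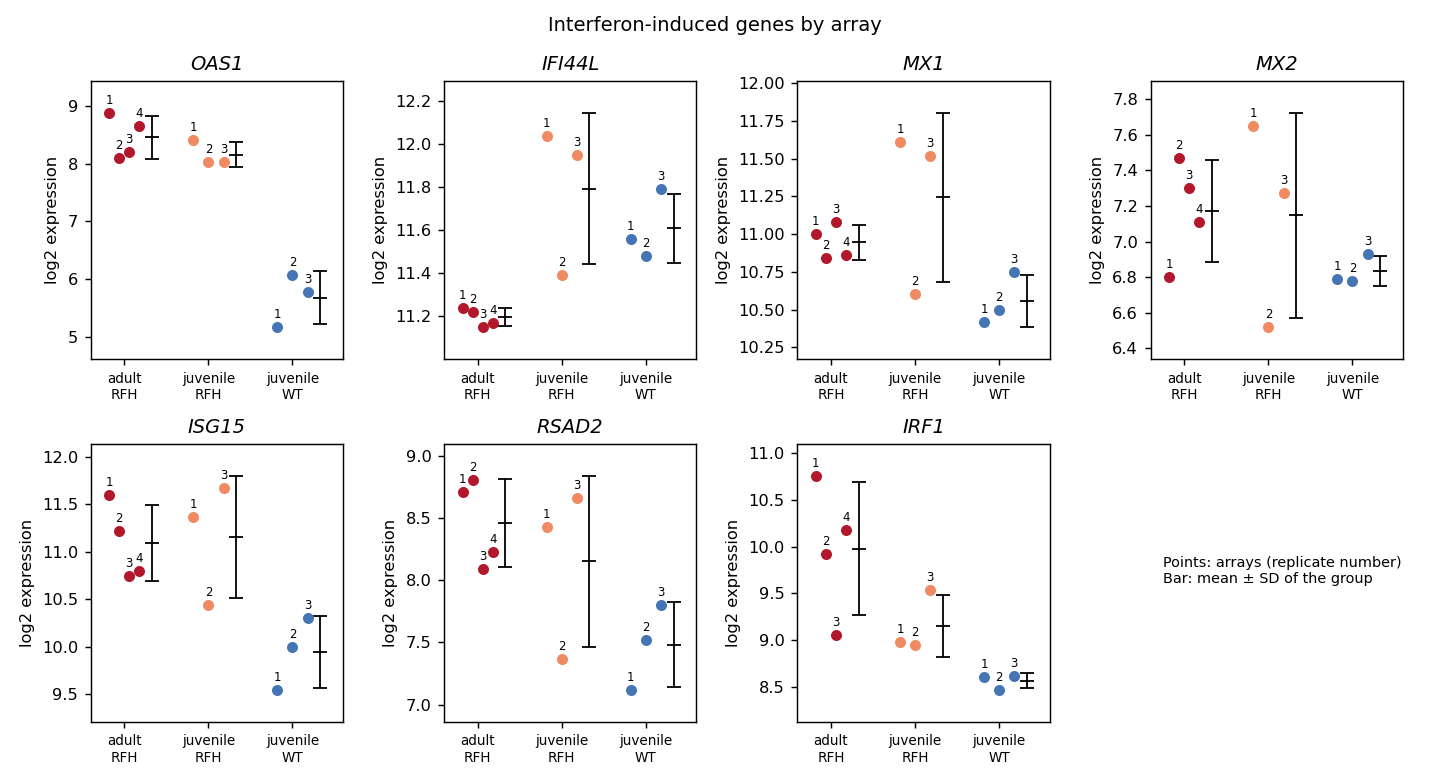
Log2 expression of the 7 measured genes, brightest probe set each, with adult RFH, juvenile RFH and juvenile WT arrays from left to right. Points are arrays with their replicate number, and bars are the mean ± SD of the group; the vertical scale differs between genes and does not start at 0. OAS1 lies between 8.02 and 8.87 in the RFH arrays and between 5.18 and 6.08 in the WT arrays, while replicate 2 is the lowest juvenile RFH array for every gene shown.

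OAS1 measured 8.87, 8.09, 8.20 and 8.64 in adult RFH arrays, 8.40, 8.02 and 8.03 in juvenile RFH arrays, and 5.18, 6.08 and 5.79 in juvenile WT arrays. All 7 RFH arrays lay above all 3 WT arrays, and the adult and juvenile RFH values overlapped. Group means were 8.45 ± 0.37 (SD, n = 4) in adult RFH, 8.15 ± 0.22 (SD, n = 3) in juvenile RFH and 5.68 ± 0.46 (SD, n = 3) in juvenile WT leaflets. Juvenile RFH exceeded WT by 2.47 ± 0.25 (SE) on the log2 scale, or 5.54-fold, and adult RFH differed from juvenile RFH by 0.30 ± 0.24 (SE). In bulk tissue, fewer cells of a type and less RNA per cell cannot be told apart. The WT mean lay under the array medians of 6.96 to 7.03, so background signal remaining after the submitters' processing would bear on the size of the fold.

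The threshold for a call was an adjusted p under 0.05 over all 23999 probe sets fitted, and of the genes past it between juvenile RFH and WT leaflets OAS1 differed most. It was the only 1 of the 7 antiviral genes past it, beside 0.133% of all genes (9 of 6765, of which 6 or 0.0887% were higher and 3 or 0.0443% lower in RFH). These values entered the choice of the gene, so nothing is read from that count. The difference lay between 2.22 and 2.67 whichever array was left out. The call was lost without juvenile RFH replicate 3, with a difference of 2.53 and a limma adjusted p of 0.063, and it held in the other 9 such fits. OAS1 had 1 probe set with a single symbol, so no second probe set could be set beside it. OAS2, its neighbour in the gene order of the pig annotation, and OAS3 had no such probe set and were not analysed here.

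ISG15 measured 11.60, 11.22, 10.75 and 10.80 in adult RFH arrays, 11.37, 10.44 and 11.67 in juvenile RFH arrays, and 9.55, 10 and 10.30 in juvenile WT arrays. The juvenile RFH arrays lay above all WT arrays, but replicate 2 exceeded the highest WT array by little. Juvenile RFH exceeded WT by 1.21 ± 0.33 (SE), and by 1.57 ± 0.28 (SE) without juvenile RFH replicate 2. With array weights ISG15 passed the threshold as well (difference 1.22, limma adjusted p = 0.0331), beside 5.87% of all genes in either direction. Adult RFH differed from juvenile RFH by -0.06 ± 0.31 (SE), and by -0.43 ± 0.27 (SE) without that array.

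RSAD2 measured 8.71, 8.81, 8.09 and 8.23 in adult RFH arrays, 8.43, 7.37 and 8.66 in juvenile RFH arrays, and 7.12, 7.52 and 7.80 in juvenile WT arrays. Juvenile RFH replicate 2 lay inside the WT range, and the other two juvenile RFH arrays lay above it. Juvenile RFH differed from WT by 0.68 ± 0.32 (SE), and by 1.07 ± 0.25 (SE) without juvenile RFH replicate 2. The difference of adult from juvenile RFH was 0.30 ± 0.30 (SE) with all arrays and -0.09 ± 0.24 (SE) without replicate 2, so its sign depended on that array. The array also holds 3 control probe sets annotated to RSAD2, named IRP and placed toward the 3', middle and 5' parts of the transcript. The 3' control probe set followed the main one, at 5.74, 5.81, 5.10 and 5.21 in adult RFH, 5.42, 4.34 and 5.64 in juvenile RFH and 4.43, 4.73 and 4.91 in juvenile WT arrays. The 5' and middle control probe sets stayed between 6.91 and 7.22 and between 3.51 and 3.87 over the 10 arrays and did not show the split.

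MX1 measured 11, 10.84, 11.08 and 10.86 in adult RFH arrays, 11.61, 10.60 and 11.52 in juvenile RFH arrays, and 10.42, 10.50 and 10.75 in juvenile WT arrays. Juvenile RFH replicates 1 and 3 were above every other array of the study, and replicate 2 lay inside the WT range. MX1 in juvenile RFH differed from WT by 0.68 ± 0.23 (SE) with all arrays and by 1.01 ± 0.13 (SE) without replicate 2. Between adult and juvenile RFH the difference was -0.29 ± 0.21 (SE), and -0.62 ± 0.12 (SE) without replicate 2. Each comparison had MX1 past the threshold once replicate 2 was left out (limma adjusted p = 0.0141 for adult against juvenile RFH and 0.0422 for juvenile RFH against WT). In the same fits 13.5% and 0.0887% of all genes passed. Replicate 2 was the lowest juvenile RFH array for MX1, and these values entered the choice of the gene, so nothing is read from those calls.

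MX2, the gene next to MX1 in the pig annotation but for 1 entry, measured 6.80, 7.47, 7.30 and 7.11 in adult RFH arrays, 7.65, 6.52 and 7.27 in juvenile RFH arrays, and 6.79, 6.78 and 6.93 in juvenile WT arrays. Replicate 2 was the lowest of all 10 arrays. MX2 in juvenile RFH differed from WT by 0.32 ± 0.25 (SE), and by 0.63 ± 0.19 (SE) without replicate 2. The difference of adult from juvenile RFH was 0.02 ± 0.24 (SE) and became -0.29 ± 0.18 (SE) without replicate 2. A dimmer probe set of MX2 lay between 4.07 and 4.59 on all arrays and differed between groups by no more than 0.08.

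IFI44L measured 11.24, 11.22, 11.15 and 11.17 in adult RFH arrays, 12.04, 11.39 and 11.95 in juvenile RFH arrays, and 11.56, 11.48 and 11.79 in juvenile WT arrays. The adult arrays lay within 0.09 of each other and under all 6 juvenile arrays. Adult RFH was lower than juvenile RFH by 0.60 on the log2 scale (difference -0.60 ± 0.15 SE), and the difference was -0.80 ± 0.11 (SE) without juvenile RFH replicate 2. Juvenile RFH and WT differed by 0.19 ± 0.16 (SE), or 0.39 ± 0.12 (SE) without replicate 2.

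The dimmer probe sets of IFI44L gave the same direction between adult and juvenile RFH but not the same size. The dimmest measured 4.87, 4.71, 5.12 and 4.85 in adult RFH arrays, 8.20, 6.69 and 8.03 in juvenile RFH arrays, and 6.82, 6.78 and 7.30 in juvenile WT arrays. Its adult mean was 4.89 ± 0.17 (SD, n = 4) and its juvenile RFH mean 7.64 ± 0.83 (SD, n = 3), a difference of -2.75 ± 0.31 (SE), or 6.75-fold. The brightest probe set gave 1.52-fold for the same comparison. The probe set of middle brightness averaged 7.07 ± 0.44 (SD, n = 4) in adult RFH, 7.79 ± 0.43 (SD, n = 3) in juvenile RFH and 7.69 ± 0.26 (SD, n = 3) in juvenile WT arrays. There the adult and juvenile RFH values overlapped, with a difference of -0.72 ± 0.26 (SE). All 3 probe sets had juvenile RFH replicate 2 as the lowest juvenile RFH array.

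**Figure D2:**
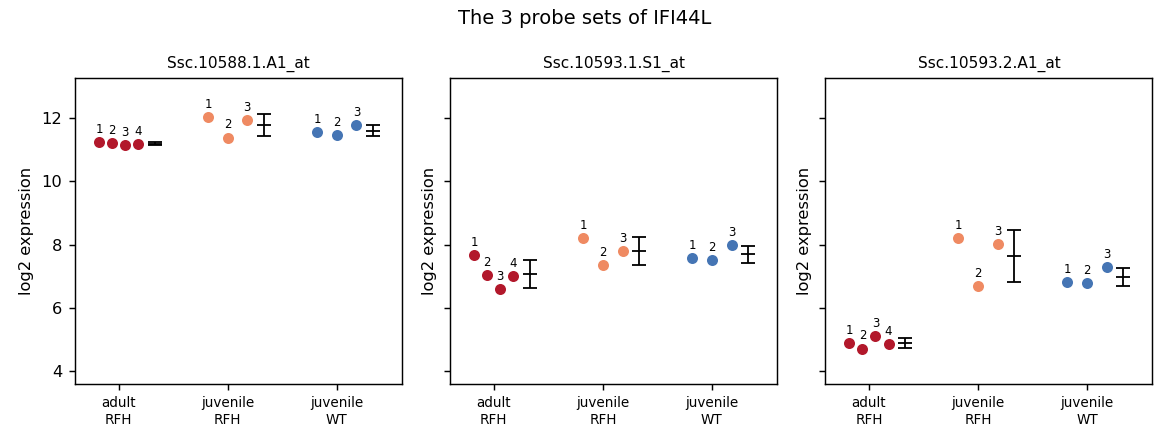
Log2 expression of the 3 single-symbol probe sets of IFI44L on a shared vertical scale, with adult RFH, juvenile RFH and juvenile WT arrays from left to right. Points are arrays with their replicate number, and bars are mean ± SD. In the panels from left to right, adult RFH minus juvenile RFH is -0.60 for the brightest, -0.72 for the middle and -2.75 for the dimmest probe set.

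IRF1 measured 10.76, 9.92, 9.05 and 10.18 in adult RFH arrays, 8.98, 8.95 and 9.54 in juvenile RFH arrays, and 8.61, 8.47 and 8.62 in juvenile WT arrays. Adult replicates 1, 2 and 4 lay above every juvenile array, and adult replicate 3 lay inside the juvenile RFH range. The juvenile RFH arrays lay above the WT arrays. Adult RFH differed from juvenile RFH by 0.82 ± 0.32 (SE), by 1.13 with adult replicate 3 left out and by 0.56 with adult replicate 1 left out. In the fit without adult replicate 3 IRF1 passed the threshold (limma adjusted p = 0.00711), beside 24.1% of all genes in either direction. It passed in no other fit that left out 1 array. Adult replicate 3 was its lowest adult array, so nothing is read from that call. Juvenile RFH differed from WT by 0.59 ± 0.34 (SE). Adult replicate 3 was also the lowest adult array for the mean of 9 endothelial markers, 8.59 against 9.19 to 9.56 in the other adult arrays, and the part of those cells in IRF1 was not tested.

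Taking the 7 genes as a list, 1 was past the threshold between adult and juvenile RFH, IFI44L, which was lower in adults, beside 19.3% of all genes (7.85% lower in adults). Adult and juvenile RFH arrays did not overlap for that same gene alone, beside 29.9% of all genes. The IFI44L call was lost when juvenile RFH replicate 1 (difference -0.48) or replicate 3 (-0.52) was left out, while leaving out replicate 2 added MX1, beside 13.5% of all genes. The median difference of the list was 0.02, the same as over all genes, and -0.29 without replicate 2, against 0.02 over all genes. Between juvenile RFH and WT all 7 differences were positive, as were 65.6% of all genes, with a median of 0.68 against 0.07 over all genes. Without replicate 2 that median was 1.01 against 0.06, and OAS1 and MX1 were past the threshold beside 0.0887% of all genes. Groups did not overlap for 3 of the 7 genes (OAS1, ISG15 and IRF1, higher in juvenile RFH), beside 35.8% of all genes in either direction and 26.3% higher in juvenile RFH. The juvenile RFH arrays enter both comparisons, so a high or low value among them moves the 2 differences in opposite directions.

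**Figure D3:**
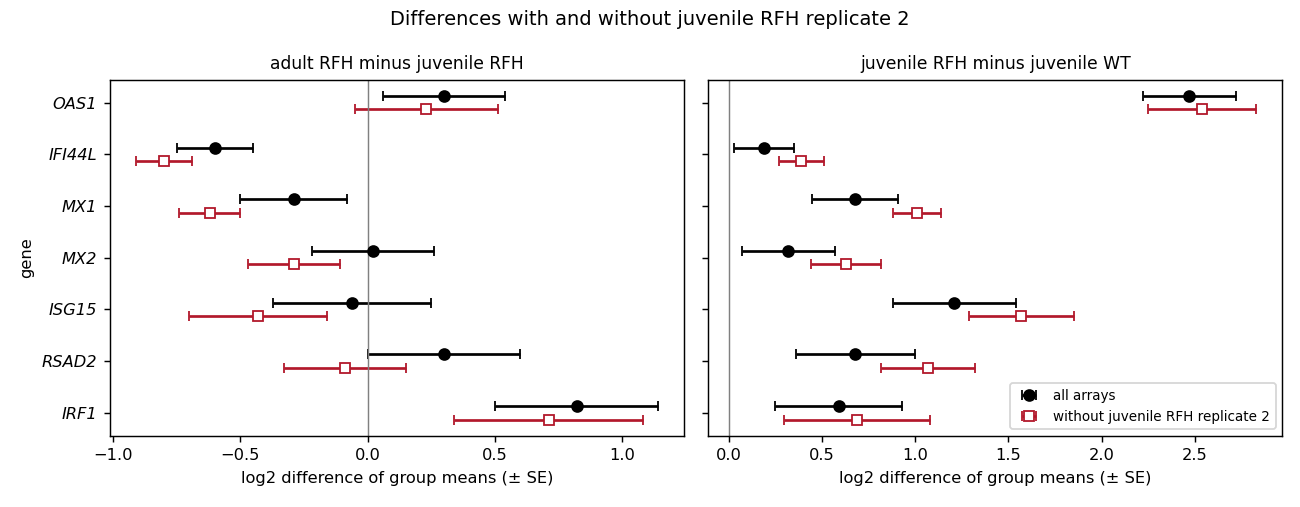
Differences of group means on the log2 scale for the 7 genes, adult RFH minus juvenile RFH in the left panel and juvenile RFH minus juvenile WT in the right panel. Filled circles use all arrays, open squares leave out juvenile RFH replicate 2, and bars are the moderated SE. Leaving it out shifts MX1 to -0.62 and 1.01 and leaves OAS1 at 0.23 and 2.54.

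Juvenile RFH replicate 2 was the lowest juvenile RFH array for all 7 genes, which holds for 26.8% of all genes. For 5 of them, IFI44L, MX1, MX2, ISG15 and RSAD2, it lay more than 0.5 below both other arrays, which holds for 1.03% of all genes. Against the mean of replicates 1 and 3 it was lower by 1.17 for RSAD2 (difference -1.17), 1.08 for ISG15 (-1.08), 0.97 for MX1 (-0.97), 0.95 for MX2 (-0.95) and 0.61 for IFI44L (-0.61). The difference was -0.32 for IRF1 and -0.20 for OAS1, and the median over all genes was 0.03. The same split was looked for because it was seen earlier in these data, so these shares are a description.

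Replicate 2 also stood closer to the WT mean than replicates 1 and 3 did, by little for OAS1. Relative to the WT mean it stood at 0.04 for MX1, -0.31 for MX2, -0.10 for RSAD2, -0.22 for IFI44L and 0.49 for ISG15. Replicates 1 and 3 averaged 1.01, 0.63, 1.07, 0.39 and 1.57 above WT for those genes in the same order. OAS1 was 2.33 above the WT mean in replicate 2 and 2.54 above it in replicates 1 and 3. Cardiac muscle markers were high in replicate 2, as given above, and the mean of 4 erythroid markers was 7.65 there against 7.28 and 6.87 in replicates 1 and 3. Of the 4, 3 were highest in replicate 2, but the globin gene HBB was not, at 9.61 against 9.51 and 9.82. The macrophage mean was 10.41 in replicate 2, against 10.41 and 10.40. The mean of 9 endothelial markers was 8.80 in replicate 2, against 8.49 and 8.57, and 7 of the 9 were highest there. The part of muscle, blood or endothelial transcripts in the low antiviral values of replicate 2 was not tested.

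**Figure D4:**
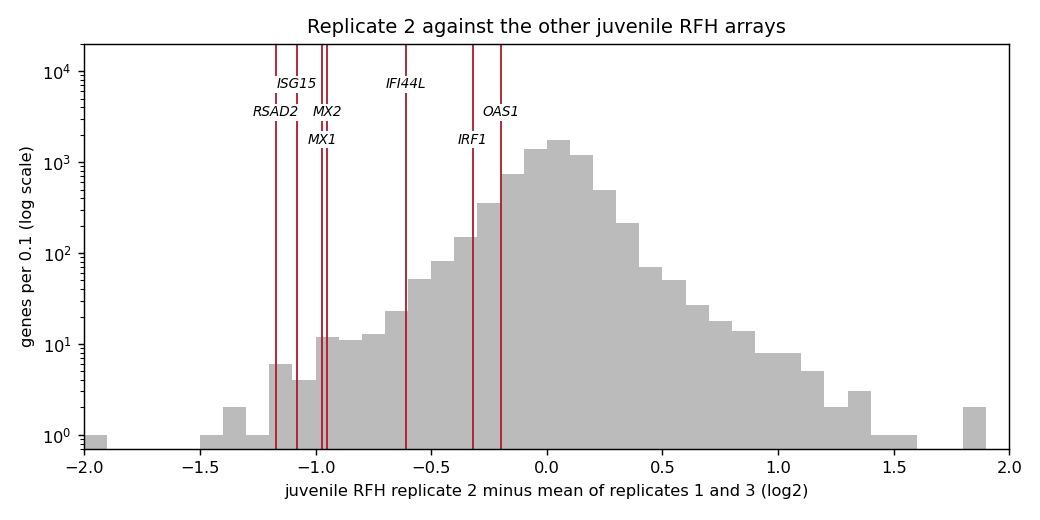
Histogram over 6765 genes of juvenile RFH replicate 2 minus the mean of replicates 1 and 3 (log2 units, horizontal axis, cut to -2 to 2, which leaves out 2 genes below and 15 above), with the number of genes per bin on a log scale. Vertical lines mark the 7 antiviral genes, from RSAD2 at -1.17 to OAS1 at -0.20.

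The other groups also varied. Among WT arrays, replicate 3 was the highest for 6 of the 7 genes, all but OAS1, and the WT range of a gene was between 0.15 for MX2 and IRF1 and 0.91 for OAS1. Adult replicates 1 and 2 exceeded replicates 3 and 4 for ISG15 and RSAD2, and by little for IFI44L. They also did for the macrophage marker mean, at 11.46 and 11.58 against 10.93 and 10.86. The T and NK cell mean did so as well (6.11 and 6.94 against 5.63 and 5.66). So did the B and plasma cell, adipocyte, endothelial and erythroid means. The valve interstitial and matrix mean was lower in replicates 1 and 2, and the cardiac muscle and plasmacytoid means did not part them. MX1, MX2, IRF1 and OAS1 did not part the adult arrays in this way either. The part of any of these cells in ISG15, RSAD2 and IFI44L was not tested. The adult range was 0.09 for IFI44L, 0.24 for MX1 and 1.71 for IRF1.

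The rest of the interferon pathway was read from a list of ligands, receptors, signalling proteins, sensors, effectors and interferon gamma targets, of which 68 genes were measured. Between adult and juvenile RFH 8 rose and 5 fell, 19.1% of the list beside 19.3% of all genes, and the median difference was 0.07 against 0.02 over all genes. Between juvenile RFH and WT none of the 68 passed by limma (0 of 68, beside 0.133% of all genes, with 25 at an unadjusted p under 0.05, against 1019 of 6765 genes). With array weights 12 passed, all higher in RFH, beside 5.87% of all genes in either direction. With only those 2 groups in the fit 6 passed, all higher in RFH, beside 4.82% of all genes in either direction. In this second comparison 60 of the 68 differences were positive, 88.2% against 65.6% of all genes, with a median of 0.33 against 0.07. Without juvenile RFH replicate 2 the count was 59 and the median 0.36.

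None of the 3 measured interferon genes passed in either comparison. IFNA1, an interferon alpha gene, lay between 6.47 and 6.78 on all arrays. IFNB1, interferon beta, averaged 2.86 ± 0.07 (SD, n = 4) in adult RFH, 2.87 ± 0.18 (SD, n = 3) in juvenile RFH and lay between 2.86 and 2.97 in juvenile WT arrays. The lowest value of any probe set over the 10 arrays was 2.01. IFNG, interferon gamma, was at most 4.26 on any array. These ligands fell outside the rule for naming genes and were added after their values were seen, because they are the signals that the list responds to. Among the receptor chains IL10RB, shared by the receptors of interferon lambda and interleukin 10, rose in adult RFH by 0.69 ± 0.19 (SE, limma adjusted p = 0.0324). IFNAR2, a chain of the type I receptor, measured 9.71, 9.78, 9.18 and 8.92 in adult RFH, 8.69, 8.92 and 8.91 in juvenile RFH and 8.57, 8.53 and 8.46 in juvenile WT arrays, and passed in neither comparison.

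Of 9 signalling and feedback genes 1 rose and 3 fell in adult RFH, beside 11.4% and 7.85% of all genes. SOCS1, a feedback inhibitor of JAK kinases, rose by 0.74 ± 0.15 (SE, limma adjusted p = 0.00784), with 7.38, 7.48, 7.18 and 7.84 in adult RFH arrays against 6.64, 6.89 and 6.65 in juvenile RFH arrays. As the mean of its 3 probe sets the SOCS1 difference was 0.40 (adjusted p = 0.0594). The kinase gene TYK2 fell by 0.30 ± 0.08 (adjusted p = 0.0344) and PIAS1, a SUMO ligase gene, by 0.34 ± 0.08 (adjusted p = 0.0169). The other probe sets of TYK2 did not all follow, since the mean of its 4 probe sets differed by -0.07. IRF9, the DNA-binding part of the complex activated by type I interferon, fell by 0.61 ± 0.17 (adjusted p = 0.0346). Its values were 9.62, 9.57, 9.44 and 9.28 in adult RFH, 10.36, 9.66 and 10.25 in juvenile RFH and 9.53, 9.53 and 9.91 in juvenile WT arrays, so that juvenile RFH replicates 1 and 3 stood apart from the rest as they did for MX1.

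IRF3, the transcription factor that turns on interferon genes after nucleic acid sensing, had the smallest p of the pathway list. It rose by 1.01 ± 0.09 (SE, limma adjusted p = 0.000109), with 10.17, 10.32, 10.25 and 10.08 in adult RFH arrays against 9.27, 9.04 and 9.28 in juvenile RFH arrays, and the WT mean was 8.96. The difference was between 0.93 and 1.05 whichever array was left out. IRF7, the factor that amplifies type I interferon production, differed by 0.05 ± 0.16 (SE) between adult and juvenile RFH and by 0.59 ± 0.17 (SE) between juvenile RFH and WT (limma adjusted p = 0.189). The sensor gene ZBP1, which binds nucleic acid in the Z form, fell in adult RFH by 0.69 ± 0.19 (SE, adjusted p = 0.0335). Between juvenile RFH and WT it differed by 1.01 ± 0.20 (SE, adjusted p = 0.0987), and by 1.29 without juvenile RFH replicate 2 (adjusted p = 0.0259). Replicate 2 was its lowest juvenile RFH array, so nothing is read from that call.

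Of 24 further antiviral effectors 3 rose and 1 fell in adult RFH, beside 11.4% and 7.85% of all genes. CH25H, which makes the antiviral oxysterol 25-hydroxycholesterol, rose by 1.15 ± 0.27 (SE, limma adjusted p = 0.0174), IFI35 by 0.71 ± 0.17 (adjusted p = 0.0173) and LGALS9, the galectin-9 gene, by 0.79 ± 0.23 (adjusted p = 0.0371). PARP9, an ADP-ribosyltransferase family member, fell by 0.74 ± 0.17 (adjusted p = 0.013), with 8.78, 8.82, 8.35 and 8.83 in adult RFH arrays against 9.58, 9.06 and 9.68 in juvenile RFH arrays. Of the effectors 23 of 24 were higher in juvenile RFH than in WT, beside 65.6% of all genes, with a median of 0.38 against 0.07. Of the 24, 0 passed, beside 0.133% of all genes. DDX60, an RNA helicase gene, had the smallest p there, with a difference of 1.01 ± 0.29 (adjusted p = 0.193). Groups did not overlap for 12 of the 24, all higher in juvenile RFH, beside 26.3% of all genes.

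Of 17 interferon gamma targets 2 rose in adult RFH, beside 11.4% of all genes. They were CD74, the invariant chain of class II antigen presentation (0.87 ± 0.24 SE, limma adjusted p = 0.0301), and SLA-2, a class I antigen presentation gene (0.42 ± 0.09 SE, adjusted p = 0.0118). Between juvenile RFH and WT 14 of these 17 genes did not overlap and were higher in juvenile RFH, beside 26.3% of all genes, and none passed. PSME2, a subunit of the proteasome activator, had the smallest p, with a difference of 0.66 ± 0.18 (adjusted p = 0.187). Of the 13 pathway genes past the threshold between adult and juvenile RFH, 3 passed whichever array was left out, namely SOCS1, IRF3 and SLA-2. The count of pathway genes past it was 4 when juvenile RFH replicate 1 was left out, 5 when replicate 3 was, and 13 when replicate 2 was, beside 10.9%, 11.1% and 13.5% of all genes in the same fits. Without replicate 2 only 9 of the 13 were the same, and 6 rose and 7 fell. TYK2 (limma adjusted p = 0.0941), PIAS1 (0.06), LGALS9 (0.112) and CD74 (0.0682) no longer passed in that fit. USP18, EIF2AK2, XAF1 and DDX60 passed in their place. For each of these replicate 2 was the lowest juvenile RFH array, so leaving it out raised the juvenile RFH mean. Nothing is read from that exchange.

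Among the 68 pathway genes, 11 had juvenile RFH replicate 2 more than 0.5 below both other juvenile RFH arrays, beside 1.03% of all genes. They were IRF9, USP18, DDX58, ZBP1, EIF2AK2, IFIT1, IFIT2, IFIT3, XAF1, PARP9 and DDX60, singled out after their values were seen. XAF1, a pro-apoptotic gene induced by interferon, measured 8.91, 7.77 and 8.99 in juvenile RFH arrays, against 7.94, 7.78 and 8.21 in juvenile WT arrays. USP18, the protease that removes ISG15 from proteins, measured 9.58, 8.39 and 9.40 in juvenile RFH arrays, against 8.45, 8.24 and 8.51 in juvenile WT arrays. DDX58, which encodes the RNA sensor RIG-I, measured 9.20, 8.18 and 8.99 in juvenile RFH arrays, against 8.12, 8.05 and 8.43 in juvenile WT arrays. In these last 3, replicates 1 and 3 lay above every WT array and replicate 2 lay inside or near the WT range. None of the 17 interferon gamma targets had replicate 2 lower by that margin, beside 1.03% of all genes. With so low a share over all genes, nothing is read from that count.

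**Figure D5:**
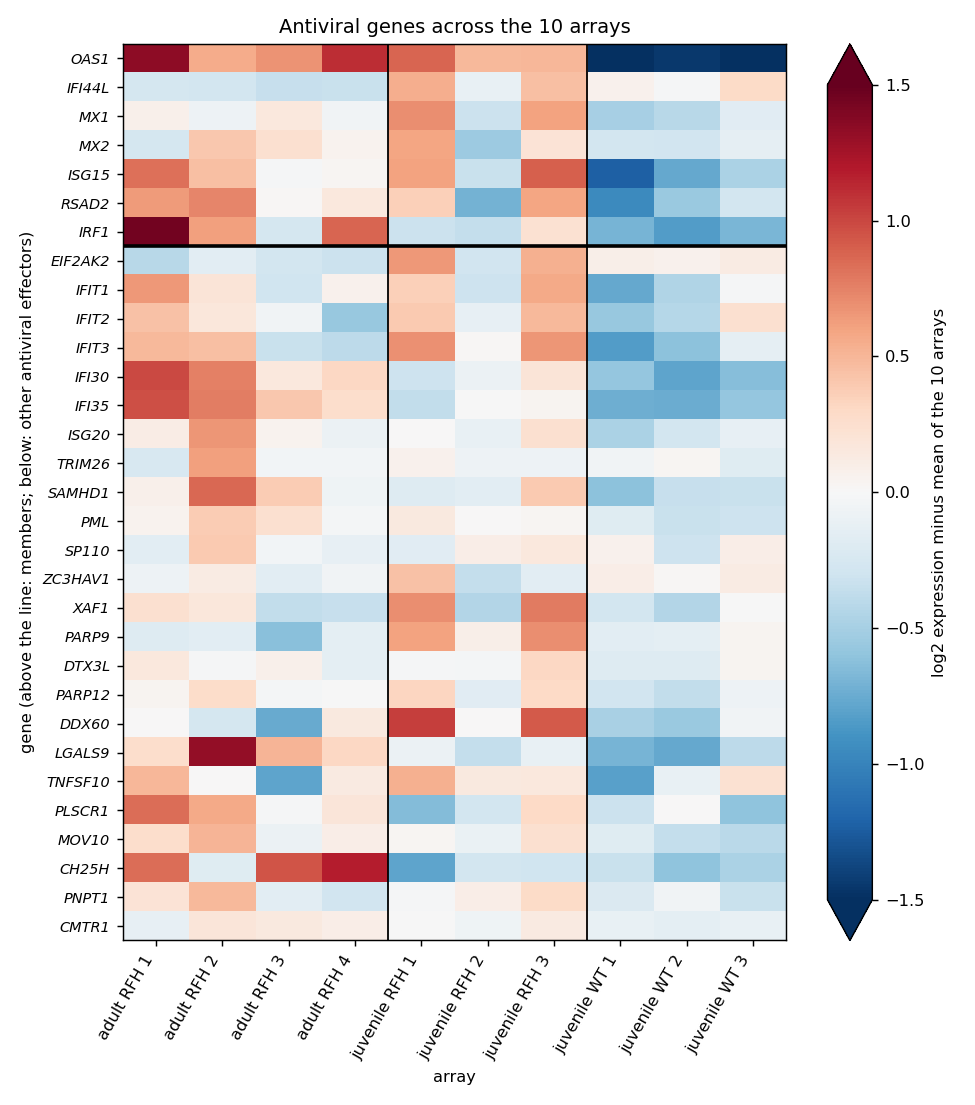
Log2 expression minus the mean over the 10 arrays for the 7 antiviral genes (above the line) and 24 other antiviral effectors (below it), with adult RFH, juvenile RFH and juvenile WT arrays from left to right; colours saturate at 1.5. OAS1 is below its mean only in the 3 WT arrays, and juvenile RFH replicate 2 is paler or bluer than replicates 1 and 3 for MX1, RSAD2, XAF1 and DDX60.

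The 7 genes were not equally alike across the 10 arrays. Over the 21 pairs, Pearson's r was between -0.44 for IFI44L with IRF1 and 0.94 for ISG15 with RSAD2. It was 0.83 for MX1 with ISG15 and for OAS1 with ISG15, and -0.27 for OAS1 with IFI44L. These values describe 10 arrays that share 3 group means, and the arrays of a group share their processing. The genes outside the list whose values followed the mean of OAS1, IFI44L, MX1, MX2, ISG15 and RSAD2 most closely were RSF1 (r = 0.965), IRF7 (0.949), REXO2 (0.946), LOC100519098 (0.934) and SIGLEC1 (0.934). SIGLEC1, a sialic acid receptor of macrophages, measured 5.15, 5.41, 5.17 and 5.13 in adult RFH, 5.35, 5.01 and 5.44 in juvenile RFH and 4.74, 4.93 and 4.87 in juvenile WT arrays. IRF1 was followed most closely by CCL4, a chemokine of activated macrophages (r = 0.982), PPM1F (0.977) and KHDRBS3 (0.969). CCL4 measured 10.61, 9.77, 8.22 and 10.23 in adult RFH, 8.36, 8.38 and 8.76 in juvenile RFH and 7.68, 7.80 and 7.98 in juvenile WT arrays, with adult replicate 3 between the WT and juvenile RFH values.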

How the data were processed

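The authors deposited log2 expression for 24123 probe sets on each of the 10 arrays. No header names the scale, and log2 was inferred from values between 2.01 and 14.96. R 2.15.2 was used, per the submitters' processing notes, while the methods of background correction, of normalization and of summarising probes are unnamed (not given in the sources used). The medians of the deposited arrays lay between 6.96 and 7.03, and the values were fitted without further normalization. The fit did not include 124 control probe sets of the array's maker. Of the other 23999 probe sets 10069 carry 1 symbol, 198 several and 13732 none in the array annotation. The 7 measured genes matched the RefSeq gene table by gene ID with the same symbols.

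Group means were fitted to all arrays by limma (version 3.58.1, run in R 4.3.3), with 7 residual and 3.57 prior degrees of freedom. Tests were two-sided and Benjamini-Hochberg adjusted over the 23999 probe sets, with a threshold of 0.05; rose and fell are used for pathway genes past it. SE is limma's moderated one. With 3 or 4 arrays per group the number of arrays limits the precision. In simulated data on 23999 probe sets the fit recovered 78% of 100 changes of 1 on the log2 scale between adult and juvenile RFH. For juvenile RFH against WT it recovered 80% of 100. Whether the simulated noise matched that of the interferon genes was not tested. Against WT, ISG15 (1.21), GBP1 (1.04), ZBP1 (1.01) and DDX60 (1.01) did not pass in the data, while OAS1 (2.47) did. The recovered shares are therefore not read as the chance of finding such a change in these genes, nor 0 pathway genes passing as absence of one.

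The genes and lists were chosen with earlier results of these data known. Pathway genes were named if past the threshold in either comparison, or else 1 per subgroup by smallest p, and likeness was ranked by Pearson's r over 10 arrays. Alternatives were quantile normalization, median centring, cyclic loess, leaving out low probe sets, a floor of 4, only the 2 groups compared, array weights, a trend and robust prior, a replicate block, averaging a gene's probe sets, and each array left out. Markers of B and plasma cells, T and NK cells, plasmacytoid dendritic cells and adipocytes were also read; T and NK marker means were 5.63 to 6.94 in adult RFH, 5.61 to 5.68 in juvenile RFH and 5.27 to 5.46 in juvenile WT arrays. The B and plasma cell means were 5.70 to 7.71 in adult RFH, 5.48 to 5.82 in juvenile RFH and 5.61 to 5.76 in juvenile WT arrays, the plasmacytoid means 6.53 to 6.73, 6.37 to 6.61 and 6.23 to 6.43, and the adipocyte means 6.09 to 7.15, 5.29 to 5.38 and 5.34 to 5.45 in the same order of groups. These 3 lists had 2, 3 and 4 measured genes, which did not move together. JCHAIN reached 10.68, and CD79B was at most 4.92. IRF7, also a pathway gene, spanned 7.80 to 8.77, TCF4 4.66 to 5.47 and SPIB 6.18 to 6.40. FABP4 was 6.64 to 9.65 in adult RFH and at most 4.21 in juvenile arrays, while ADIPOQ stayed between 3.91 and 4.42 and LEP between 7.20 and 7.57.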

Additional observations from a re-analysis of the deposited data

Results flagged for a closer look

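PARP9 had 1 adult RFH array apart from the others. Adult RFH replicate 3 measured 8.35, and the nearest adult array 8.78, so that the gap made up 0.886 of the range of the 4 adult arrays, above Dixon's critical value for a group of 4. The 7 antiviral genes and the 13 pathway genes past the threshold were checked in this way, 20 genes in all, and about 1 group in 20 passes that value by chance. None of the 7 antiviral genes had an adult array apart by this measure. The groups of 3 arrays were not checked.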

How the results depend on the processing

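For adult against juvenile RFH, 13 pathway genes passed, and 5 did with only the 2 groups compared; with 1 array left out the count lay between 4 and 18. For juvenile RFH against WT 0 pathway genes passed, 6 with only the 2 groups compared and 12 with array weights, while calls over all genes were 9, 326 and 397 in those fits. With 1 array left out between 0 and 2 pathway genes passed, and calls over all genes lay between 0 and 24. The median difference of the 7 antiviral genes stayed between -0.29 and 0.28 for adult against juvenile RFH and between 0.43 and 1.01 for juvenile RFH against WT with 1 array left out. IFI44L between adult and juvenile RFH was -1.36 as the mean of its 3 probe sets. OAS1 between juvenile RFH and WT had a limma adjusted p of 0.0617 with values below 4 raised to 4, with a difference of 2.47 as before. No OAS1 value lay under 5.18, so that floor changed none of them. The moderated SE was 0.29 in that fit against 0.25, and calls over all genes were 2 against 9. With the replicate number as a block (replicate block), 14 pathway genes passed for adult against juvenile RFH, 11 of them the same, and 0 for juvenile RFH against WT. The numbers are not shown to pair the arrays, since deviations of same-numbered arrays correlated between -0.16 and 0.19. Under median centring and cyclic loess TYK2 no longer passed (adjusted p = 0.0653 and 0.0567). Background may limit dim probe sets, such as that of OAS1 in WT arrays, and its part was not tested.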
